A study of Arabidopsis thaliana with 4 samples.

Results

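The nuclear transcriptome of the *Arabidopsis* shoot was described by function from the 3 ONT Pc replicates, CTRL1, CTRL2, and CTRL3, for which cDNA was amplified by PCR and read on a Nanopore PromethION. The members are the 22294 genes of nuclear chromosomes 1 to 5 among the 23281 features of the deposited table. The other features were 115 genes encoded in the chloroplast or the mitochondrion and 872 loci numbered by the authors. All 3 replicates were wild-type plants of the Columbia ecotype (Col-0), several plants pooled in each, grown at 23 °C by day and 18 °C by night under 16 h of light and 8 h of dark. Aboveground parts were collected when rosette growth was complete. No treatment, mutant, or other tissue is part of the series, so the replicates serve to show how far a share or a level can be read. The values are rescaled CPM, that is, the reads of a gene per 1000000 reads of its own replicate. Where levels of different genes are compared, length-scaled CPM are used, in which the rescaled CPM is divided by the length of the longest annotated transcript and all values again add to 1000000.

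Leaf cells spend much of their messenger RNA on the photosynthetic machinery. Antenna proteins of the light-harvesting complex (LHC) bind chlorophyll and pass energy to photosystems I and II, whose nuclear-encoded subunits are imported into the chloroplast and joined there with subunits made in the chloroplast itself. The small subunit of Rubisco (RBCS), the enzyme that fixes CO2, is likewise encoded in the nucleus, by a small gene family. Messages of ribosomal proteins, enzymes, and regulators make up much of the rest, and the regulators come from large families whose members are each expressed at low levels.

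To place the genes by function, each gene was given to 1 of 21 classes by its Pfam protein families, as listed in the deposited family table. A family was listed for 18777 of the 22294 genes, and 3517 had none. Reads were found for 21489 genes in at least 1 replicate, for 19173 in every replicate, and more than 3 reads in every replicate for 17430. Another 805 genes were listed without a read. The replicates held between 6835029 and 8122432 reads, of which nuclear genes took between 99.5% and 99.6%, and 3 reads corresponded to between 0.369 and 0.439 CPM. The origin of the tissue was checked with marker genes. Of 8 root markers, 3 were listed and none had more than 3 reads, and of 4 seed storage markers, 1 was listed, with 2 reads in CTRL2. The 4 guard cell markers added to between 68.0 and 80.6 CPM and the 4 phloem markers to between 257 and 278 CPM. The 4 xylem markers added to between 17.3 and 24.3 CPM. The 4 trichome markers added to between 52.4 and 64.0 CPM, most of it from *TTG1* at 48.1, 57.7, and 52.5 CPM. Only 2 of them had more than 3 reads in every replicate, as *GL1* had 1, 3, and 2 reads and *GL3* 1, 2, and 0. All 8 flower markers were listed, their sum stayed between 2.05 and 4.74 CPM, and none had more than 3 reads in every replicate. Of the meristem genes, *WUS* was at 0 in each replicate and *STM* had 7 reads in CTRL1, 6 in CTRL2, and 32 in CTRL3. In pooled tissue, fewer cells of a type and less RNA per cell cannot be told apart.

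Promoter windows of 6 genes are shown, taken from the main layers of the transcriptome described in the following paragraphs. The windows were read from the TAIR10.1 genome, 250 bases before to 50 after the annotated start of each gene, 5′ to 3′ on the strand of the gene. In the first 4, capitals mark every match, on either strand, to 4 short strings: GATAA, the core read by GATA factors and found in many light-responsive promoters, CACGTG, known as the G-box, and AAACCCTA and TGGGCC, known as the telo box and the site II element of ribosomal protein genes. None of the 4 strings contains another. The first 3 promoters belong to *PSBR*, a subunit at the oxygen-evolving side of photosystem II, to *RBCS3B*, and to *PSAO*, a subunit of photosystem I, and the last to *AT3G53740*, a gene of a cytosolic ribosomal protein. *PSBR* was picked as the most abundant light reaction gene whose window holds both GATAA and CACGTG. *AT3G53740* was picked likewise among genes in families of eukaryotic ribosomes, for both AAACCCTA and TGGGCC. These strings in their windows follow from that choice and do not show what is typical.
PSBR, chr1:29735702-29736001, plus strand: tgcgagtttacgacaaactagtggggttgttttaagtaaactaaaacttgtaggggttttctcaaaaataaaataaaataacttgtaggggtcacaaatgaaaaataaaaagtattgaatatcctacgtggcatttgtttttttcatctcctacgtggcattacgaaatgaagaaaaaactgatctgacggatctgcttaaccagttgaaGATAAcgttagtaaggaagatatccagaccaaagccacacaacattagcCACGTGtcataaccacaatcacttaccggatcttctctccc
RBCS3B, chr5:15378593-15378892, minus strand: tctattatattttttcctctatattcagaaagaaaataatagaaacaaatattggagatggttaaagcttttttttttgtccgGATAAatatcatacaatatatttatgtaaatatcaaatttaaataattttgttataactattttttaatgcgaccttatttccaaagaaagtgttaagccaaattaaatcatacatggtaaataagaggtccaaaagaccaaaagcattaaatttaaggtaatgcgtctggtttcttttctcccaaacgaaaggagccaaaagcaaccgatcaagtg
PSAO, chr1:2641885-2642184, minus strand: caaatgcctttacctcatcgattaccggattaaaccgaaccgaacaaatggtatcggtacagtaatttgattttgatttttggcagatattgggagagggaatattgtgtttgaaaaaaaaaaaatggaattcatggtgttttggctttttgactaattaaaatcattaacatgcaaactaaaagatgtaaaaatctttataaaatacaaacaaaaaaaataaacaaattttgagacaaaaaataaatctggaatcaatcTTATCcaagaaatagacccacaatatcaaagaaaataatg
AT3G53740, chr3:19915017-19915316, minus strand: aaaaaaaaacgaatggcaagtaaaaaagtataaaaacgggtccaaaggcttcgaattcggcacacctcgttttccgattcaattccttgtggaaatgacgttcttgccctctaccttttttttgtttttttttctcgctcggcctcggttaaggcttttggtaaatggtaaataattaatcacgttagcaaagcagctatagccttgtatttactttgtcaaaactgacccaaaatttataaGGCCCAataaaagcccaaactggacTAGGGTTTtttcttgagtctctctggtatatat

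GATAA was present in 82.5% of the promoters of light reaction genes (80 of 97), against 61.1% of all 22293 promoters of the same length that could be read. CACGTG was present in 26.8% of the promoters of light reaction genes, against 8.52% of all promoters. Among the 109 genes in families of eukaryotic ribosomes, TGGGCC was present in 65.1% and AAACCCTA in 49.5%, against 17.7% and 5.61% of all promoters. The light reaction promoters held AAACCCTA in 1.03%, and the carbon fixation promoters in 0 of 71. TGGGCC, in contrast, was present in 20.6% of the light reaction and 29.6% of the carbon fixation promoters, above its 17.7% of all promoters. By abundance, GATAA was present in 83.0% of the promoters of the 100 most abundant genes, and the 44 of them outside light reactions and carbon fixation had it in 79.5%. These shares describe letters in a window, and binding was not measured.

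The reads were concentrated in few genes. In CTRL1, 253 genes held 50% of the reads of nuclear genes, in CTRL2 286, and in CTRL3 339 (mean 293 ± 43.4, SD, n = 3). A share of 25% of these reads lay in 27, 30, and 35 genes, and 90% in 5404, 5691, and 5833 genes of CTRL1, CTRL2, and CTRL3. The 100 genes with the highest mean level held 40.4%, 39.2%, and 36.8% of all reads. The order of the replicates was the same for each of these measures, with CTRL1 the most and CTRL3 the least concentrated. The top of the ranking was largely shared, as 88 genes were among the 100 most abundant in all 3 replicates and 112 in any of them. For the 1000 most abundant, these numbers were 852 and 1146.

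**Figure D1:**
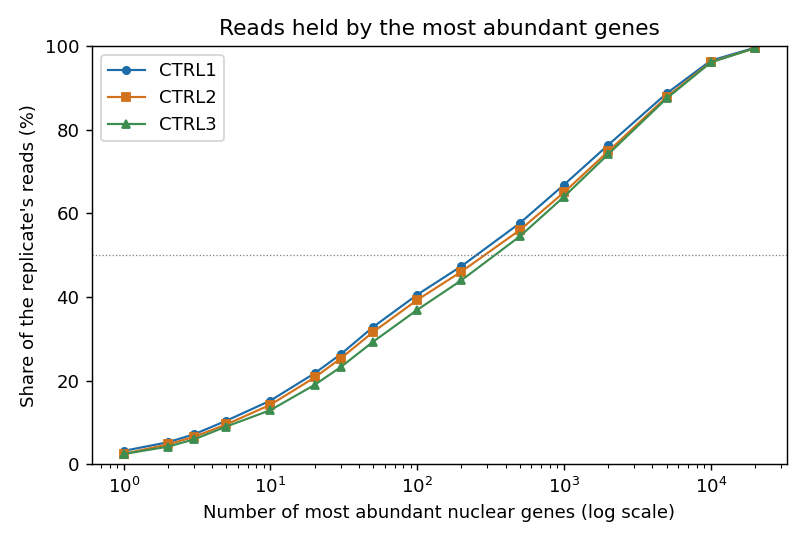
Share of the reads of each replicate (vertical axis, %) held by its most abundant nuclear genes (horizontal axis, number of genes, log scale), with 1 line per replicate and points at fixed numbers of genes. The dotted line marks 50%. Of the reads of nuclear genes alone, 50% lay in 253 genes of CTRL1, 286 of CTRL2, and 339 of CTRL3.

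Light reactions were the largest class by reads in the order in which classes were assigned. A gene whose family names matched several classes went to the first of them. Its 98 genes, 0.44% of the members, held 23.0%, 23.2%, and 20.2% of the reads of CTRL1, CTRL2, and CTRL3 (22.1% ± 1.65, SD, n = 3). Carbon fixation held 8.89%, 7.16%, and 7.36% in 71 genes (7.81% ± 0.95), and of these reads 34.8% came from *RBCS1A* alone. Ribosomal proteins held 5.34%, 3.87%, and 5.39% in 348 genes (4.87% ± 0.863). The broad class of other metabolic enzymes held 10.2% ± 0.214 in 2690 genes. Genes in families of no chosen class held 12.9% ± 0.466, and genes with no listed family 11.6% ± 0.834. None of the remaining classes passed 4% on average. Redox and detoxification held 3.97% ± 0.118, specialised metabolism and defence 3.92% ± 0.166, ubiquitin and proteolysis 3.80% ± 0.198, and signalling 3.07% ± 0.263. Transport held 2.89% ± 0.0754 and transcription factors 2.09% ± 0.18. With the classes assigned in reverse order, other metabolic enzymes held the most reads, 26.3%, light reactions held 21.7%, and carbon fixation 0.645%. Redox and detoxification then held 2.101%, specialised metabolism and defence 2.07%, and signalling 1.86%, and each of these 3 moves was larger than the spread between replicates.

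The order of neighbouring classes was then compared replicate by replicate. Of the 20 pairs of neighbours, 13 kept their order in 3 of 3 replicates and 7 did not. The order was that of the means of these same replicates, so agreement was favoured by construction and the counts are a description. The signs of the differences were flipped in an exact permutation test (two-sided), in which no pair could fall below p = 0.25, the smallest value that 3 replicates allow, and the smallest value adjusted over the 20 pairs was 0.385. Light reactions exceeded other families by 9.19 percentage points (SD 2.03), and carbon fixation exceeded ribosomal proteins by 2.94 (SD 0.844), each in 3 of 3 replicates. The order of carbon fixation and ribosomal proteins was turned with the classes assigned in reverse, at 0.645% for carbon fixation and 4.54% for ribosomal proteins, and with values split evenly over a gene's classes, at 4.22% and 4.70%. Ribosomal proteins exceeded redox and detoxification in 2 of 3 replicates only, with a mean difference of 0.893 (SD 0.978). Cell wall and translation factors, at 1.14% each, differed by 0.00074 percentage points on average (SD 0.0563) and changed places between replicates. In reverse assignment they held 0.516% and 0.714%.

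**Figure D2:**
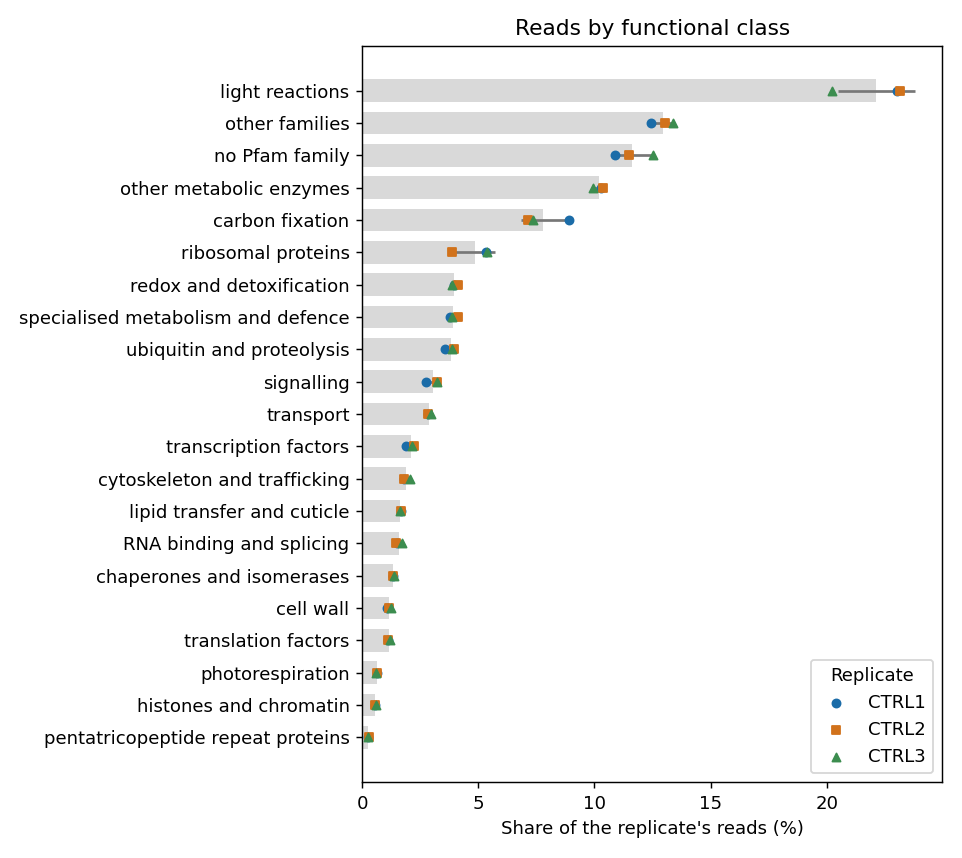
Share of the reads (horizontal axis, %) of each of 21 functional classes (rows), with points for CTRL1, CTRL2, and CTRL3, grey bars for their mean, and lines for ± 1 SD. Light reactions reach 22.1% on average and carbon fixation 7.81%, and the widest spreads relative to their means among the 6 largest classes are those of ribosomal proteins, lowest in CTRL2, and carbon fixation, highest in CTRL1.

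Behind the 3 leading genes, *RBCS1A*, *LHB1B2*, and *PSBR*, ranks 4 to 30 held 18.3% ± 0.943 of the reads (SD, n = 3). All of the 30 genes belonged to light reactions (22 genes), to carbon fixation (3 genes, all *RBCS*), or to the genes with no listed family (5 genes). The highest replicate exceeded the lowest by a factor of 1.04 to 1.39 in each of them, with a median of 1.18, and 26 of the 30 were also among the 30 with the highest length-scaled CPM. Their transcripts were 598 to 1508 bases long.

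**Figure D3:**
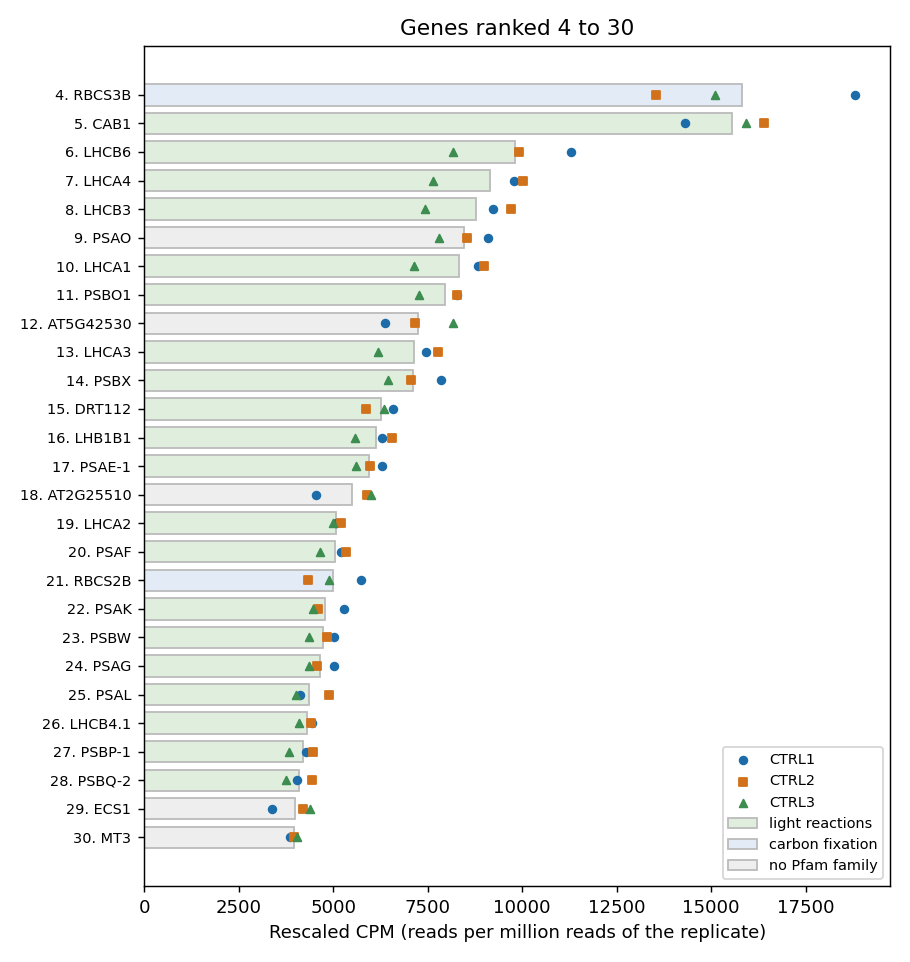
Rescaled CPM (horizontal axis, reads per 1000000 reads of the replicate) of the genes ranked 4 to 30 (rows), with points for the 3 replicates and bars for their mean, shaded by class. *RBCS3B*, *CAB1*, and *LHCB6* lead, and for most antenna genes the CTRL3 point is the lowest of the 3.

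The antenna of photosystem II was the largest functional group within light reactions. Its 14 genes held 8.07%, 8.63%, and 7.01% of the reads, and 13 of them were among the 100 most abundant genes. *LHCB6*, a minor antenna protein next to the reaction centre, had 11303, 9926, and 8166 CPM in CTRL1, CTRL2, and CTRL3. *LHCB3*, a subunit of the trimeric antenna, had 9235, 9694, and 7429.5 CPM. *LHCB4.3* lay far below the other members, at 91.7, 106, and 69.5 CPM, and on length-scaled CPM *LHB1B2* exceeded it 284-fold. The 6 antenna genes of photosystem I held 3.02% ± 0.328 of the reads. *LHCA1* and *LHCA4*, whose proteins pair in the antenna belt, had 8829.6, 9000.5, and 7149.9 CPM and 9783, 10013, and 7629 CPM. *LHCA5* and *LHCA6*, antenna proteins that join photosystem I to the NDH complex, were much less abundant, at 349 ± 23.5 and 166 ± 12.8 CPM.

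Photosystem subunits followed. The 12 genes of photosystem I subunits held 4.83% ± 0.352 of the reads, and all 12 were among the 100 most abundant genes. *PSAO* led them at 9086, 8538, and 7800 CPM, followed by *PSAE-1*, a subunit at the ferredoxin docking side, at 6280, 5970.1, and 5603 CPM. From the highest to the lowest member, the length-scaled CPM of the group spanned 10.3-fold. The 11 genes of photosystem II subunits held 5.41% ± 0.28. *PSBX*, a small subunit encoded by a gene without introns, had 7854, 7072, and 6440.5 CPM. *PSBO1*, the manganese-stabilising protein of the oxygen-evolving complex, had 8279, 8287, and 7281 CPM, whereas its paralog *PSBO2* had 1272, 1223, and 1098 CPM, and the length-scaled CPM of the pair were 6477 and 1109. Between the photosystems, plastocyanin *DRT112* had 6578, 5870.4, and 6358 CPM, and the other plastocyanin gene, *PETE1*, had 222, 208, and 186 CPM, with length-scaled CPM of 5715 for *DRT112* and 241 for *PETE1*. The 3 nuclear genes of the plastid ATP synthase together held 0.342% ± 0.0175.

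Within small families, the leading copies took similar shares of the reads in each replicate. Among the 4 *RBCS* genes, *RBCS1A* took 53.7%, 55.6%, and 50.8% of the family's reads and *RBCS3B* 31.5%, 30.1%, and 31.4%. *RBCS2B* took 9.80% ± 0.285 and *RBCS1B* 5.82% ± 1.64. The coding sequences of *RBCS1B* and *RBCS2B* were 97.3% identical and those of *RBCS2B* and *RBCS3B* 94.3%, so the division among these 3 neighbours on chromosome 5 is uncertain, whereas *RBCS1A* was at most 90.1% identical to any of them. Among the 5 *LHCB1* genes, *LHB1B2* took 43.7% ± 2.51 and *CAB1* 34.2% ± 3.4 of the reads. *CAB1*, *CAB2*, and *CAB3* were 95.6% to 96.4% identical to each other, and their division is uncertain for the same reason. The 3 *LHCB2* genes were more even, at 37.6% ± 0.677 for *LHCB2.1*, 35.9% ± 1.34 for *LHCB2.3*, and 26.6% ± 1.23 for *LHCB2.2*.

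Beyond Rubisco, the 19 genes of the Calvin-Benson cycle held 1.81% ± 0.164 of the reads, and their length-scaled CPM spanned 1023-fold. *GAPA*, a subunit of the plastid glyceraldehyde 3-phosphate dehydrogenase, led with 4275, 3601, and 3569 CPM. *FBA2*, a plastid aldolase, had 2611, 2404, and 1997 CPM. At the other end, the transketolase *TKL2* had 6.77, 7.45, and 7.02 CPM, and *TKL1* had 641, 648, and 627 CPM, with length-scaled CPM of 2.61 and 245. Rubisco activase, *RCA*, which frees the active site of Rubisco, had 4141, 3899, and 3192 CPM and is counted with other families, since its Pfam family is a general ATPase domain. The 13 genes of the photorespiratory cycle, which recycles the product of the oxygenase reaction of Rubisco, held 0.847% ± 0.0547, led by *SHM1*, a mitochondrial serine hydroxymethyltransferase, at 1679, 1609, and 1318 CPM. Chlorophyll synthesis held 0.389% ± 0.0349 in 14 genes, of which *PORB*, a light-dependent protochlorophyllide reductase, had 639, 701, and 720.3 CPM and the related *PORA* 19.6, 21.8, and 18.9 CPM, with length-scaled CPM of 514 and 15.3.

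Genes with no listed family included some of the most abundant messages. Of the 3517, 11 were among the 100 most abundant genes and 48 held 50% of the class. Several have a known function but no family in the list: *PSAO* and *PSBTN* are photosystem subunits, and *MT3* is a metallothionein, a small cysteine-rich metal-binding protein. *MT3* varied little, with 3849, 3970.3, and 4047 CPM. *ECS1*, a cell wall protein, had 3382, 4203, and 4389 CPM. The median transcript of the class was 1053 bases long, and on length-scaled CPM the class made up 15.8% ± 1.12.

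The 2 most abundant genes annotated only as uncharacterized proteins were *AT5G42530*, at rank 12, and *AT2G25510*, at rank 18. *AT5G42530*, on chromosome 5 (17004738 to 17005510), had 6371, 7170.1, and 8177 CPM. *AT2G25510*, on chromosome 2 (10856271 to 10857217), had 4553, 5901, and 6009 CPM. Both were lowest in CTRL1 and highest in CTRL3, as were 42.0% and 44.6% of all genes with at least 10 reads in each replicate. On length-scaled CPM they stood at ranks 6 and 11. Their promoter windows are shown because they share sequence, with capitals for runs of at least 12 bases that both windows hold.
AT5G42530, chr5:17005461-17005760, minus strand: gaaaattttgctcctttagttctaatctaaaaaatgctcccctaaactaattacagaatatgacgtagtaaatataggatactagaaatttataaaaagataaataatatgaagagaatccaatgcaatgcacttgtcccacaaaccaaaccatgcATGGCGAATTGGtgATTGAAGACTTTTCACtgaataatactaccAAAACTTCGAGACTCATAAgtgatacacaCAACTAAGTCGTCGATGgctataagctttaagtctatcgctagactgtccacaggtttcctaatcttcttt
AT2G25510, chr2:10856021-10856320, plus strand: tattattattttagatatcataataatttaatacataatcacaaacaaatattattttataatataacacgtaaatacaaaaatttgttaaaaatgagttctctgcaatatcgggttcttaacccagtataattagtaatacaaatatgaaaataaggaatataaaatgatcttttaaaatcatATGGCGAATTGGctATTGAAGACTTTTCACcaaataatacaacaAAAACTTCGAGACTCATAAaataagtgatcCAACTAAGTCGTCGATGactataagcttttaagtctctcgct

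The windows aligned over 189 columns, of which 74.1% were identical, reaching from 160 bases before to 20 bases after the start in *AT5G42530*. The shared runs covered 64 bases of each, and the longest was 19 bases. The coding sequences, 216 and 312 bases long, aligned over 56 columns with 91.1% identity and could not be aligned closely over their remainder. How the authors' counting treated reads of this pair was not tested.

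The make-up changed with abundance. Ranks 1 to 100 held 38.8% ± 1.85 of all reads, the next 900 genes 26.3% ± 0.716, the 4000 after these 22.7% ± 0.838, and the remaining 17294 genes 11.7% ± 0.585. Of the reads of ranks 1 to 100, 55.4% were of light reactions and 17.7% of carbon fixation. Among the next 900 genes, light reactions held 1.90% of the reads, and ribosomal proteins and other metabolic enzymes held 14.9% each. Below rank 1000 the largest classes were other families and other metabolic enzymes, with 22.8% and 18.1% among the next 4000 genes. Signalling held 0.35%, 2.82%, 5.66%, and 7.75% of the reads of the 4 ranges from the top down, and transcription factors 0, 1.87%, 3.98%, and 5.92%. Genes with no listed family held between 10.5% and 13.3% in each range.

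**Figure D4:**
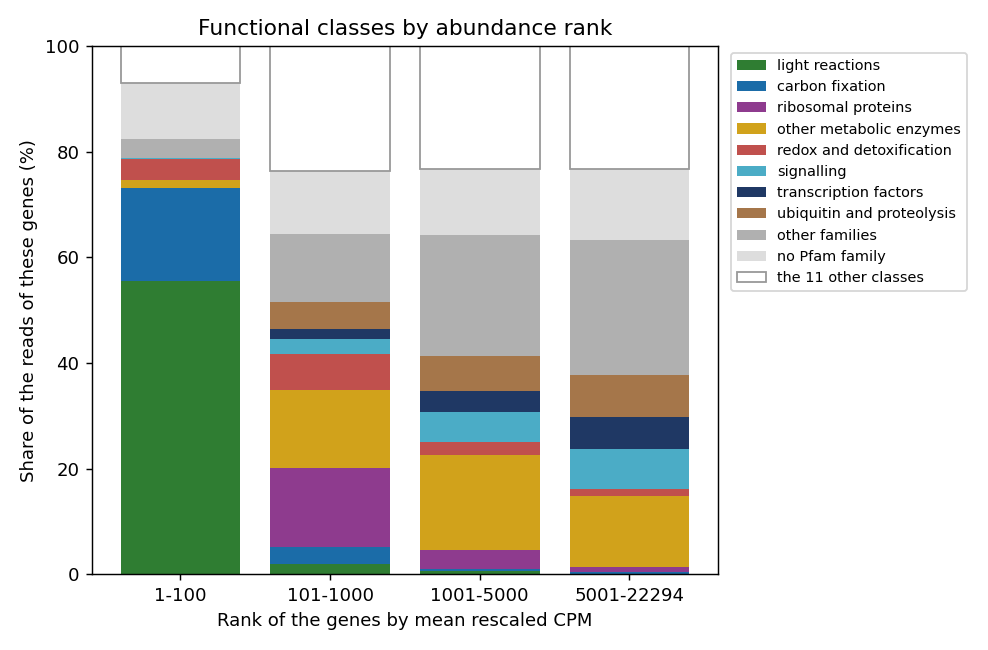
Share of the reads (vertical axis, %) by functional class within 4 ranges of genes ordered by mean rescaled CPM (horizontal axis), as means of the 3 replicates. Light reactions hold 55.4% of the first range and 1.90% of the next, where ribosomal proteins hold 14.9%.

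Abundant genes also had shorter transcripts. The median length of the longest annotated transcript was 1214 bases at ranks 1 to 100, 1289 in the next 900 genes, 1559 in the 4000 after these, and 1719 below, against 1666 over all members. Across all 22294 genes, however, length and mean CPM were hardly related (Spearman's rho 0.06, a description across genes of the same libraries). The replicate spread, as the median SD of log2(rescaled CPM + 0.5), was 0.16, 0.18, 0.16, and 0.22 in the 4 ranges.

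No ribosomal protein gene was among the 100 most abundant genes, yet 134 of the 348 were among the 1000 most abundant. The leading gene, *AT1G29070*, encodes a protein of the L34 family of bacterial-type ribosomes, found in organelles, and had 1148, 706, and 1008 CPM at rank 107. *RPL12-A*, a protein of the chloroplast ribosome, had 889.6, 682, and 793 CPM. *EMB2296*, of a family shared by both kinds of ribosome, had 807, 538, and 769 CPM, and *AT3G53740*, whose promoter is shown above, had 641, 403, and 601 CPM. CTRL2 had the lowest value of each of these 4, as it had of 33.6% of all genes with at least 10 reads in each replicate. No single gene dominated the class: *AT1G29070* held 1.96% of it, and 60 genes were needed for 50%. By type, families of eukaryotic ribosomes held 1.70% ± 0.351 of all reads in 109 genes, families of bacterial-type ribosomes 0.668% ± 0.0834 in 59 genes, and families shared by both 2.50% ± 0.432 in 180 genes.

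The leading genes of the other classes are named by reads. Detoxification and defence messages stood high among them. In redox and detoxification, *CAT3*, a catalase that breaks down hydrogen peroxide, had 2621, 3601, and 2799.8 CPM. *GSTF9*, a glutathione S-transferase, had 3086, 2915, and 2998 CPM and thus differed least among the 3 leading genes of the class, followed in rank by the peroxidase *PRXR1* at 2841, 3526, and 2549.5 CPM. In specialised metabolism and defence, *NIT1*, a nitrilase, had 3386, 3428, and 2982 CPM. *TGG1*, a myrosinase that hydrolyses glucosinolates after wounding, had 3279, 2798, and 3369 CPM, and *GER1*, a germin-like protein, had 2294, 1699, and 2573 CPM. These genes stood between ranks 38 and 57. The 23 genes of glucosinolate synthesis and breakdown held 1.03% ± 0.0311 of the reads, of which *NIT1* took 31.7%.

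In transport, *APE2*, the translocator that exports triose phosphates from the chloroplast, had 3562, 3489, and 3016 CPM and alone held 11.6% of the class. The aquaporins *PIP1B* of the plasma membrane and *TIP2* of the vacuole followed, at 967 ± 84.7 and 829 ± 162 CPM. Among other metabolic enzymes, the leading genes were *THI1*, which makes the thiazole part of vitamin B1, at 1657 ± 131 CPM, *GGT1*, an aminotransferase of photorespiration, at 1070.3 ± 109 CPM, and *FNR1*, which passes electrons from ferredoxin to NADP, at 1062 ± 26.8 CPM. In other families, *AT4G01150*, annotated as a curvature thylakoid protein, had 3751 ± 266 CPM, *RCA* 3744 ± 493 CPM, and *PSI-P*, another protein of the thylakoid membrane, 2388 ± 299.9 CPM.

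Genes of gene expression and protein turnover came next. *AT5G60390*, the elongation factor eEF1A, had 1362, 963, and 1242 CPM and stood at rank 85. The initiation factor gene *AT5G54940* differed most among the named translation genes, with 328, 953, and 807 CPM, and was lowest in CTRL1. Histones were led by *AT4G40040*, a histone H3 gene, at 584 ± 18.9 CPM. The cyclophilins *ROC4*, *ROC3*, and *ROC1*, which help proteins fold, led the chaperones at 968 ± 182, 866 ± 104, and 611 ± 134 CPM. In ubiquitin and proteolysis, *AT4G16190*, a papain-type cysteine protease, had 977 ± 119.6 CPM, and the polyubiquitin gene *UBQ10* had 718, 923, and 699 CPM. In RNA binding and splicing, *AT2G37220*, a chloroplast RNA-binding protein, had 582, 496, and 721 CPM. Among pentatricopeptide repeat proteins, which act on organelle RNA, *AT1G07590* held 39.1% of the reads of 437 genes, at 852, 1231, and 917 CPM, and the median gene of the class had 1.34 CPM.

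Single regulators were of low abundance. The transcription factor with the most reads was *HB6*, a homeodomain protein, at 343, 443, and 470.4 CPM, which placed it at rank 254. *COL3* and *STO*, B-box proteins of light signalling, followed at 403 ± 31.4 and 333 ± 58.5 CPM. In this class, 92 genes were needed for 50% of the reads and the median gene had 4.55 CPM, whereas in light reactions 10 genes sufficed and the median gene had 256 CPM. In signalling, *AT2G41090*, a calcium-binding protein with EF-hands, had 1140.2, 1564, and 1367 CPM, and *PCAP1*, a cation-binding protein of the plasma membrane, had 431, 367, and 576 CPM. Cell wall was led by *GRP-3*, a glycine-rich protein, which had 1971, 2619.8, and 2302 CPM and held 20.1% of its class. Lipid transfer and cuticle was led by *ACBP6*, an acyl-CoA-binding protein, at 1592, 1353, and 1473 CPM, and the lipid transfer protein *LP1* varied the least of the 3 leading genes there, at 1085, 1106, and 1104 CPM. Cytoskeleton and trafficking was led by *ARFA1E*, a small GTPase of vesicle budding, at 536, 646, and 763 CPM.

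Counted by Pfam family rather than by class, a gene entering each of its families, the chlorophyll a-b binding family came first, with 115036, 121168, and 98644 CPM over 28 genes. The protein kinase domain reached the fifth place, with 11198, 12829, and 12509.5 CPM, but over 912 genes, of which *CIPK7* had the largest share at 2.06%. Per gene, this came to 13.4 CPM for protein kinases and 3986 CPM for chlorophyll a-b binding proteins. Single-gene families such as that of *PSBR* or *PSBX* stood beside them in the ranking. The PacBio library of the same tissue gave isoforms per family without levels. Of its 24665 isoforms placed in a family, 10.8% were of signalling and 1.30% of light reactions. These classes held 3.07% and 22.1% of the ONT Pc reads, and 7.17% and 0.44% of the members. The measures are unlike, since isoforms are distinct forms with a family, whereas reads were counted over all features. The paper describes the PacBio library as size-fractionated, and the part of transcript length in these shares was not tested. Across 3977 families with a member gene, 993 of them without a PacBio isoform, isoform number and mean CPM had a Spearman's rho of 0.56. This is a description across families that share genes, with no p-value.

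Next, the replicates were compared gene by gene over the 15817 genes with at least 10 reads in each. Of these, 42.0% were lowest in CTRL1, 33.6% in CTRL2, and 24.5% in CTRL3, while 20.8% were highest in CTRL1, 34.6% in CTRL2, and 44.6% in CTRL3. A ratio of the highest to the lowest replicate of more than 2 was found in 8.62% (1363 genes), and the median ratio was 1.31. By class, a ratio over 2 was found in 2.17% of the light reaction genes, 1.54% of carbon fixation, and 3.65% of ribosomal proteins. It was found in 16.3% of specialised metabolism and defence, 15.4% of cell wall, and 12.8% of transcription factors. These classes also differ in abundance, and the part of depth in their shares was not tested.

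Ribosomal proteins were lower in CTRL2 as a class. Of the 329 genes with at least 10 reads in each replicate, 294 were lowest in CTRL2 (89.4%, against 33.6% of all genes tested). Their median ratio of CTRL2 to the mean of CTRL1 and CTRL3 was 0.728, against 0.999 over all genes. By type, the lowest replicate was CTRL2 in 97.1% of the genes in families of eukaryotic ribosomes (100 of 103), 77.2% of those of bacterial-type ribosomes (44 of 57), and 88.8% of those shared by both (150 of 169). Ribosomal transcripts are short, and the shares within bins of transcript length are therefore given beside this result. At 600 to 900 bases CTRL2 was lowest in 89.4% of 113 ribosomal genes and 43.4% of 1021 other genes, and at 1200 to 1800 bases in 88.3% of 77 and 32.2% of 4840. Translation factors were lowest in CTRL2 in 50.7% of their genes. With 3 replicates of 1 condition, these counts describe the libraries, and genes of 1 complex are not independent of each other.

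Light reaction genes were most often lowest in CTRL3, with 54 of 92 (58.7%, against 24.5% of all genes). For the antenna of photosystem II this held in 13 of 14 genes, for that of photosystem I in 4 of 6, for photosystem I subunits in 11 of 12, for photosystem II subunits in 8 of 11, and for the plastid ATP synthase in 3 of 3. Electron carriers and the cytochrome b6f complex were lowest in CTRL2 in 6 of 8 genes and in CTRL3 in 2. Light reaction genes were highest in CTRL1 in 39 of 92 (42.4%, against 20.8% of all genes). This did not hold for the antennae, which were highest in CTRL2 in 12 of 14 genes of photosystem II and 4 of 6 of photosystem I (34.6% of all genes). Photosystem I subunits were highest in CTRL1 in 7 of 12 genes, photosystem II subunits in 6 of 11, electron carriers and b6f in 5 of 8, and the plastid ATP synthase in 1 of 3. Rubisco and its activase were highest in CTRL1 in 4 of 5 genes, with sums of 63796, 48822, and 51362 CPM.

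Groups of less abundant genes, listed with the values known, separated CTRL3 or CTRL2 from the others. Cold and drought response genes, which protect cells against freezing and drying, added to 1638, 2489, and 6345 CPM over 12 genes, and 8 of the 12 were highest in CTRL3, as were 44.6% of all genes tested. *KIN2*, a small protein induced by cold and abscisic acid, had 694, 1065, and 3080.2 CPM, the highest ratio between replicates of any of the 100 most abundant genes. Its coding sequence is 95.0% identical to that of *KIN1*, so the division of reads between them is uncertain. *COR15B*, a chloroplast protein that stabilises membranes in the cold, had 115, 181, and 795 CPM. The clock genes of afternoon and evening added to 49.1, 45.2, and 193 CPM, with all 6 genes that had 10 reads in each replicate highest in CTRL3 (44.6% of all genes), and *ELF4*, of the evening complex, had 1.60, 2.17, and 41.6 CPM. Anthocyanin synthesis added to 398, 785, and 92.6 CPM, with 9 of 9 such genes lowest in CTRL3 (24.5% of all genes) and *TT4*, chalcone synthase, at 115, 245, and 21.9 CPM. The 9 *ATG8* genes of autophagy added to 599, 867, and 671 CPM, with 7 of 9 highest in CTRL2 (34.6% of all genes), and the phosphate starvation genes to 1529, 2229, and 885 CPM. These groups were chosen with such differences in view, so their counts are a description. Harvest times are not given in the sources used here, and the part of sampling time was not tested.

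**Figure D5:**
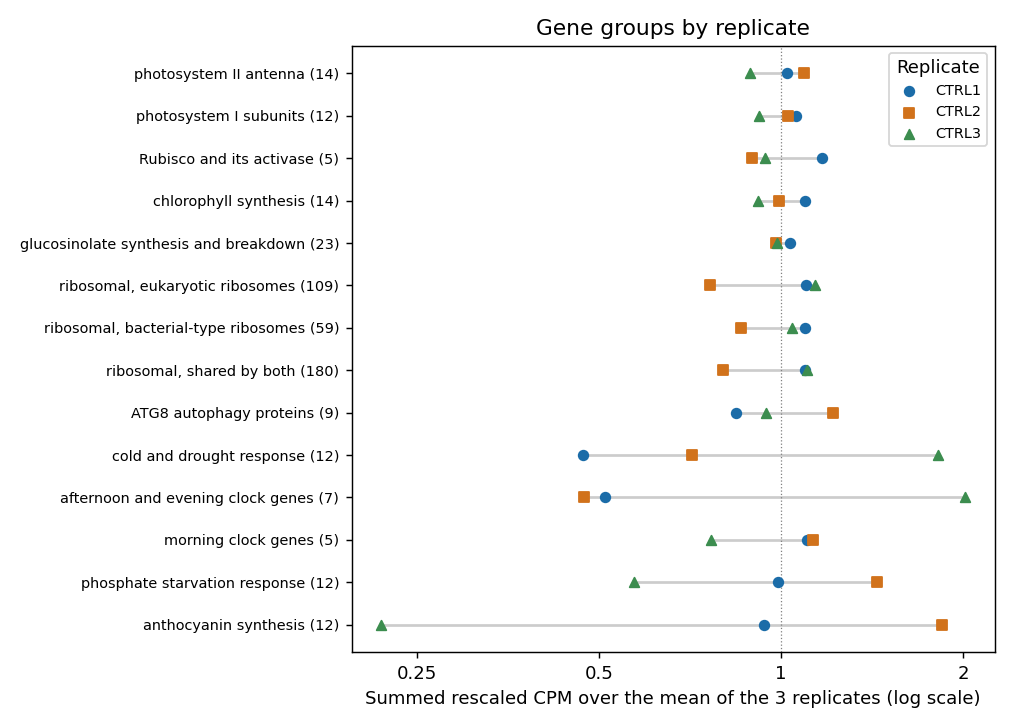
Summed rescaled CPM of gene groups (rows, with the number of genes) over the mean of the 3 replicates (horizontal axis, log scale, 1 at the dotted line), with a point per replicate. Photosynthetic groups lie between 0.887 (photosystem II antenna, CTRL3) and 1.17 (Rubisco and its activase, CTRL1). Ribosomal groups are lowest in CTRL2, as are Rubisco and its activase. Cold and evening clock groups are highest in CTRL3, and anthocyanin synthesis is lowest there.

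Among the 100 most abundant genes, 3 had a ratio of the highest to the lowest replicate over 2, and 9 over 1.5, with a median of 1.24. After *KIN2*, *MT2A*, another metallothionein, had 1162, 1614, and 2697 CPM. *CCL*, an unstable transcript known to follow the clock, had 714, 1046, and 1587 CPM. All 3 were highest in CTRL3 and lowest in CTRL1, as were 44.6% and 42.0% of all genes tested. Single genes were then ranked by this ratio among those with at least 10 reads in each replicate and above a set minimum of mean CPM. Genes with a lower mean were not ranked. The highest ratio was that of *JMJD5*, a histone demethylase of the clock, at 2.09, 5.55, and 58.8 CPM, which is 28.1-fold. *GRP7*, an RNA-binding protein under clock control, had 100.1, 138, and 828 CPM, and *WRKY53*, a transcription factor of leaf senescence, had 9.36, 47.4, and 66.6 CPM. A ratio over 4 was found in 115 genes, 0.727% of the 15817 with at least 10 reads in each replicate. Of these, 67 were highest in CTRL2, 42 in CTRL3, and 6 in CTRL1, against 34.6%, 44.6%, and 20.8% of all genes tested.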

How the data were processed

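Total RNA of aboveground parts was amplified as cDNA and sequenced on a Nanopore PromethION in 3 replicates. Per the study's methods, base-calling used Guppy, consensus building Racon, mapping GMAP, and counting Salmon, and the authors deposited the result as CPM per gene. The submitters' processing notes also name minimap2 and TAIR10. The deposited columns add to 1000000, 476263, and 305905, so each was rescaled to its own sum. Dividing by the value of 1 read gave whole reads for 100% of the values (within 0.05 reads), namely 8122432, 7386184, and 6835029 reads. No groups are compared, so no count test was run on them. Without molecular identifiers, PCR copies are counted, and floors of 3 reads cover counting error only. Whether the replicates were grown separately is not stated, and their spread may be partly technical.

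The deposited family list was reduced to genes, and each gene was given to the first class, in a fixed order, that any of its families matches (21 classes). The members, classes, and lists were chosen with earlier results of these data known. The named genes are the 30 with the highest mean rescaled CPM, the 3 highest of each class, and the 5 highest without a family, with *RBCS1A*, *LHB1B2*, and *PSBR* only in passing. Other genes were named from the lists or after their values were seen. The named families were taken from the 25 with the highest summed mean CPM. Gene positions, names, transcript lengths, and promoters came from RefSeq TAIR10.1, and all 22294 identifiers matched. Neighbouring classes were compared with an exact permutation test that flips signs, with p-values adjusted by Benjamini-Hochberg over 20 pairs. Alternatives were the denominator, length scaling, a minimum of 10 reads, removal of the 3 most abundant genes, the order and splitting of classes, pseudocounts of 0.1 and 1, and each replicate left out. Every per-sample column was used. Scripts were tested on simulated data. Python 3.11.15, numpy 2.4.6, pandas 2.3.3, matplotlib 3.10.9, and Biopython 1.88 were used.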

Additional observations from a re-analysis of the deposited data

Results flagged for a closer look

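Reads outside the nuclear genes exceeded the limit of 3 reads in 3 sets of features that no comparison used. The genes encoded in the chloroplast held 0.00226% of the reads on average, with 146, 191, and 164 reads in CTRL1, CTRL2, and CTRL3. The genes encoded in the mitochondrion held 0.00145%, with 103, 124, and 96 reads. The 872 numbered loci held 0.483%, with 33732, 39112, and 34430 reads.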

How the results depend on the processing

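On length-scaled CPM, 173 genes held 50% of the total and the 100 most abundant held 44.3%, light reactions made up 25.3%, ribosomal proteins 6.36%, and genes with no listed family 15.8%. Without the 3 most abundant genes, the top 100 held 34.9%, light reactions 19.6%, and carbon fixation 5.44%. Carbon fixation depended most on how genes matching several classes were placed. It held 0.645% with the order of classes reversed and 4.22% with values split evenly over a gene's classes. The split was an alternative chosen after seeing the data. Both values were below ribosomal proteins, at 4.54% and 4.70%. In both settings, by construction, reads of genes whose family names also match other metabolic enzymes pass to that class, in whole or in part. *RBCS1A*, whose 2 families are both named for Rubisco, is 1 of these genes. Other metabolic enzymes then held 26.3% and 18.2%. Leaving out each replicate in turn gave 269.5 to 312.5 genes for 50% of the reads of nuclear genes, and 38.0% to 39.9% for the top 100. Light reactions then held 21.6% to 23.1%, carbon fixation 7.26% to 8.13%, and ribosomal proteins 4.61% to 5.37%. Genes with no listed family held 11.2% to 12%. Of 218 values under alternatives, 149 were counted as unmoved and 69 moved by more than the spread between replicates. All of the 69 were shares of classes apart from the number of genes for 50% of the reads and the share of the top 100. The 149 include 25 for each replicate left out. Dropping 1 of 3 replicates cannot move a mean by as much as their SD, so for shares and gene numbers these could not have moved. The replicate spread by abundance and the order of neighbouring classes had no SD to be set against. Classes rest on Pfam names, so *RCA*, *FNR1*, and *PSAO* lie outside light reactions and carbon fixation. Likewise, *TT4* of anthocyanin synthesis is counted with lipid transfer and cuticle, and *JMJD5* with specialised metabolism and defence. At this depth, 3 reads are 0.369 to 0.439 CPM, the limit that a count of 0 allows. No paired analysis was possible because no groups are compared.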
